A study of Mus musculus with 24 samples.

Results

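The 8 genes described here encode the insulin and growth factor relay to Akt in mouse liver: the insulin receptor substrates Irs1 and Irs2, the phosphoinositide 3-kinase (PI3K) subunits Pik3ca and Pik3r1, the kinases Akt1 and Akt2, and the transcription factors Foxo1 and Foxo3. They were found by gene symbol, with 1 row each, among the 49315 genes of the deposited count and TPM tables. In the relay, an activated receptor phosphorylates the Irs adaptors, which recruit PI3K to the membrane. The lipid made by PI3K brings Akt to the membrane, where it is phosphorylated and switched on, and active Akt phosphorylates FoxO factors and keeps them out of the nucleus. In hepatocytes FoxO factors drive genes of gluconeogenesis, and insulin turns them off through Akt. RNA levels do not report phosphorylation, so the values below are transcript levels of the relay's parts and not its activity.

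The study sequenced RNA of individual mouse livers in 4 groups of 6. Tumour-bearing livers that had received AKT and YAP1 by transposon came from Mdr2-/- mice (CCA.Mdr2-/-) and from wild-type mice (CCA.Wild-type), where CCA stands for cholangiocarcinoma, a cancer of bile duct type. Control livers without tumour had received an empty transduction and came from Mdr2-/- mice (Ctrl.Mdr2-/-) and wild-type mice (Ctrl.Wild-type). Mdr2, now called Abcb4, is the canalicular pump that puts phospholipid into bile, and its loss leads to chronic bile duct injury. The labels give no age, sex or strain, and do not name the promoter, the species or the isoform of the delivered AKT. Whether a read of Akt1 came from the mouse's own gene or from the delivered one therefore cannot be told apart in these counts, nor, in whole liver, can more cells of a type be told apart from more RNA per cell.

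Libraries held between 20976459 and 30288385 counted reads. Each of the 8 genes had between 328 and 5237 counts in every library, so counting error alone was 1.38% to 5.52% of a value, well under the spread between livers. All 10 hepatocyte markers were detected in every library, and their summed level ran from 35113 to 71076 CPM, reads per 1000000 scaled by TMM, in CCA.Mdr2-/-, 84223 to 103347 in Ctrl.Mdr2-/-, 58432 to 105315 in CCA.Wild-type and 126662 to 153820 in Ctrl.Wild-type. The summed level of 12 bile duct markers ran from 1152 to 4113 CPM in CCA.Mdr2-/-, against 158 to 392 in Ctrl.Mdr2-/-, and from 227 to 1452 CPM in CCA.Wild-type, against 87.6 to 147 in Ctrl.Wild-type, where up to 1 of the 12 markers was at 0 in a library. A pair of tumour-bearing libraries, replicate 1 of CCA.Mdr2-/- and replicate 6 of CCA.Wild-type, stood apart from their groups in a principal component analysis. Replicate 6 did so on the second component (20.9% of variance), at -40.6 where the rest of its group lay at 9.82 to 37.8. On the first component (36.4%) replicate 3 of CCA.Wild-type lay farther from replicates 1, 2 and 4 than replicate 6 did, at -41.0 against -28.1. Replicate 1 of CCA.Mdr2-/- had the lowest duct marker sum of its group, and replicate 6 of CCA.Wild-type had 2.30% of its counts in 7 nuclear non-coding RNAs such as Malat1, where the other 5 libraries of its group had 5.51% to 6.51%. Abcb4 itself, the gene lost in Mdr2-/- mice, ran from 21.7 to 59.3 CPM in CCA.Mdr2-/- against 165 to 361 CPM in CCA.Wild-type livers, and from 23.8 to 41.6 CPM in Ctrl.Mdr2-/- against 244 to 377 CPM in Ctrl.Wild-type livers, so each library matched its genotype label.

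Akt1 was the most abundant of the 8 transcripts in both tumour-bearing groups, and not in the controls. In the authors' TPM, which correct for transcript length and so allow genes to be compared, Akt1 averaged 63.5 ± 23.6 in CCA.Mdr2-/- livers and 51.5 ± 28.0 in CCA.Wild-type livers (SD, n = 6 each), and it lay above Akt2, the next gene, in all 6 livers of each group. Akt2 led in the controls, with 31.9 ± 6.89 TPM in Ctrl.Mdr2-/- and 19.3 ± 4.47 TPM in Ctrl.Wild-type livers (SD, n = 6 each). It did not stand apart there, being above the next gene in 3 of 6 livers of each control group (Akt1 in Ctrl.Mdr2-/-, Pik3r1 in Ctrl.Wild-type). Irs1 was lowest in every group, at a mean of 4.31 TPM in CCA.Mdr2-/-, 6.18 in Ctrl.Mdr2-/-, 4.21 in CCA.Wild-type and 6.99 in Ctrl.Wild-type, although in Ctrl.Wild-type livers Irs2 exceeded it in 4 of 6. Pik3r1 had a mean of 21.5 TPM in CCA.Mdr2-/-, 21.9 in Ctrl.Mdr2-/-, 21.9 in CCA.Wild-type and 19.1 in Ctrl.Wild-type, and it was above Foxo3 in all 6 livers of both tumour-bearing groups but in Ctrl.Mdr2-/- livers below it in 3 of 6. Pik3ca stayed between a mean of 9.25 and 10.01 TPM in all 4 groups.

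**Figure D1:**
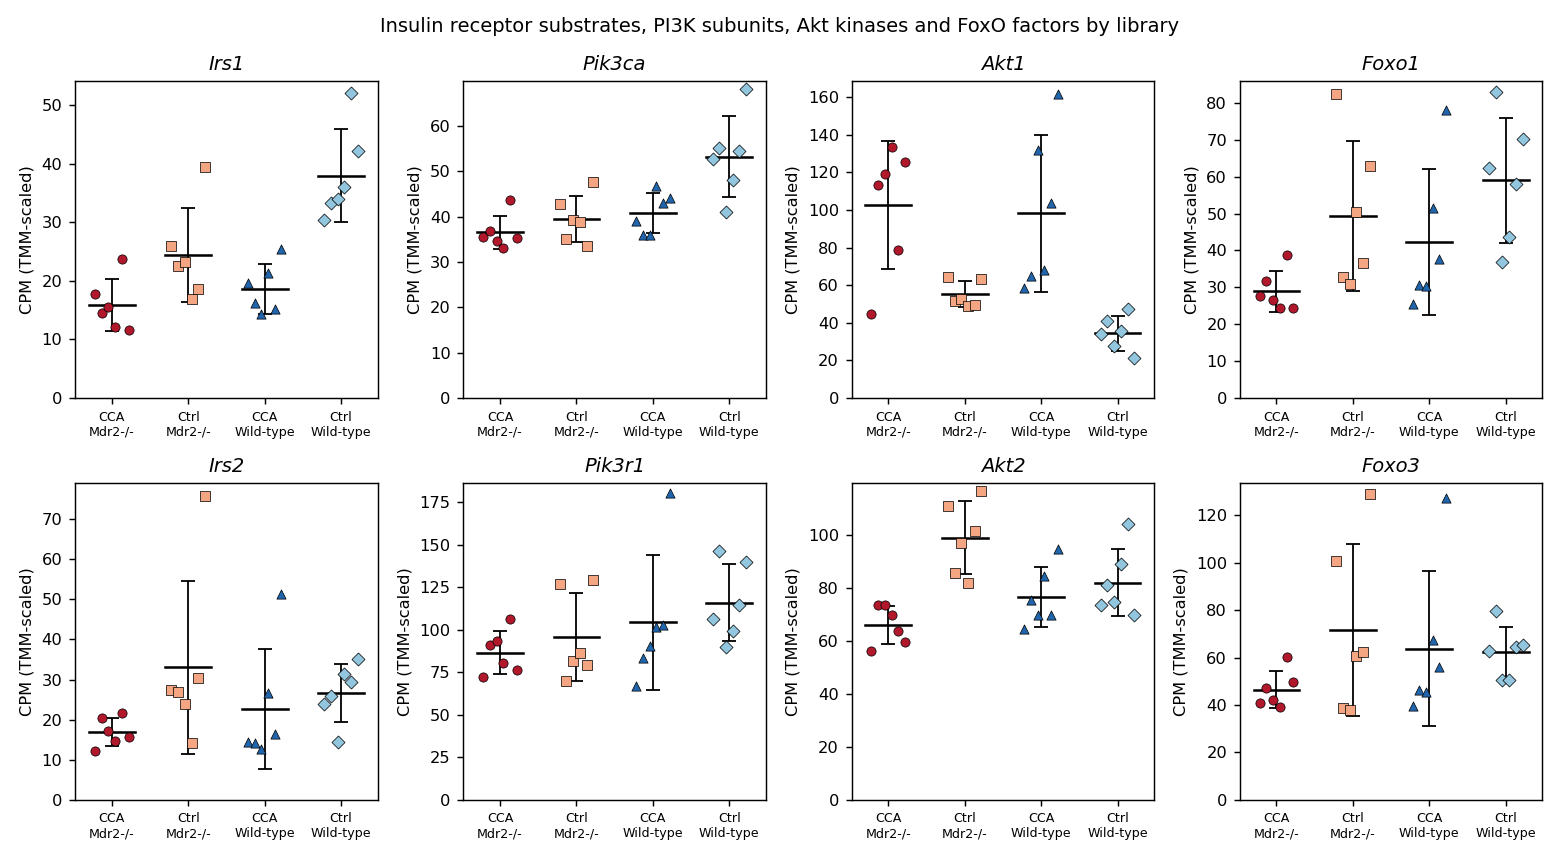
Level of the 8 genes in each library, in CPM scaled by TMM (vertical axes, starting at 0), by group (horizontal axes). Points are livers, 6 per group, the long bar is the mean and the whiskers are 1 SD. Akt1 lies between 44.9 and 133.6 CPM in CCA.Mdr2-/- and between 58.5 and 161.6 CPM in CCA.Wild-type livers, and Irs1 in CCA.Wild-type livers lies below every Ctrl.Wild-type liver.

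Changes between groups were tested with edgeR's quasi-likelihood test on the counts of 17216 genes, with p-values adjusted by Benjamini-Hochberg over all of them, and are given as log2 fold change ± standard error. A gene is called where the adjusted p is under 0.05. In Mdr2-/- livers, 5 of the 8 genes were called between tumour-bearing and control livers, 1 higher and 4 lower, where 34.8% of all tested genes were called, 17.9% higher and 17.0% lower. In wild-type livers, 3 of the 8 were called, 1 higher and 2 lower, where 28.4% of all tested genes were called, 16.9% higher and 11.5% lower. The split of calls depends on the scaling. When libraries were scaled by total counts alone (total library size), 5565 genes were higher and 924 lower in Mdr2-/- livers, where TMM gave 3074 and 2921, and 5783 were higher and 603 lower in wild-type livers, where TMM gave 2915 and 1976. That scaling shifted the median of all genes by 0.25 and 0.30, and log2(TPM + 1) by 0.10 and 0.25. The median log2 fold change of the 8 genes was -0.60 in Mdr2-/- and -0.20 in wild-type livers, beside 0.04 and 0.03 over all tested genes. Each control group serves both its tumour comparison and the genotype comparison of controls, so these share samples.

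**Figure D2:**
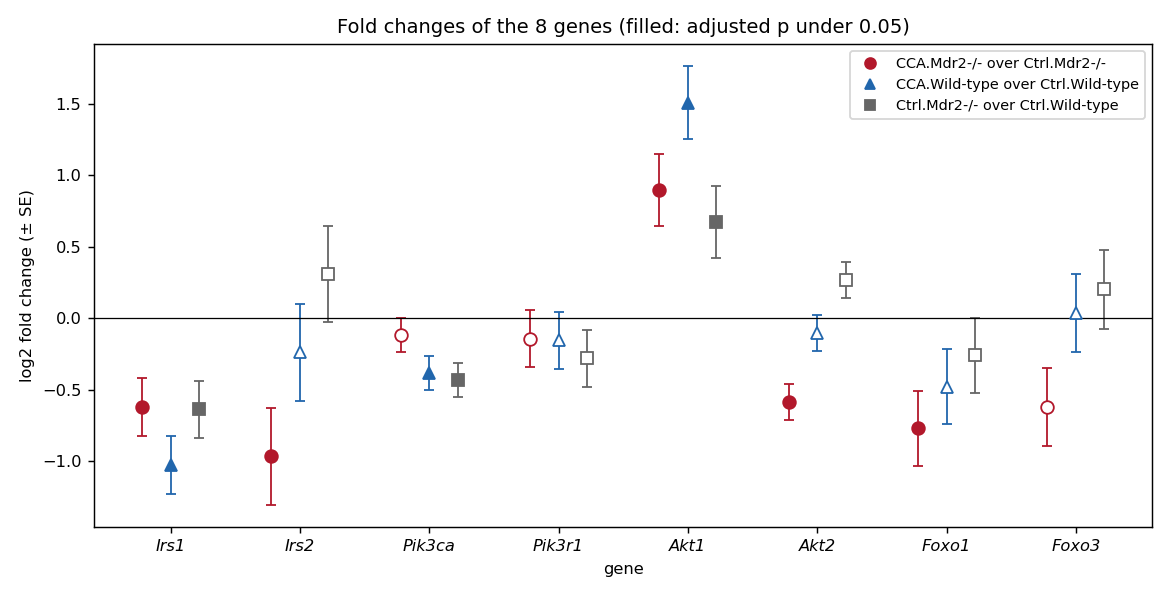
Log2 fold change of each gene (vertical axis, with 1 standard error) for CCA.Mdr2-/- over Ctrl.Mdr2-/- (red circles), CCA.Wild-type over Ctrl.Wild-type (blue triangles) and Ctrl.Mdr2-/- over Ctrl.Wild-type (grey squares). Filled symbols have an adjusted p under 0.05 in edgeR. Akt1 is above 0 in all 3 comparisons and Irs1 below 0 in all 3.

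Among the receptor substrates, Irs1 RNA was lower in tumour-bearing livers of both genotypes. Irs1 is the adaptor that couples the insulin and IGF1 receptors to PI3K, and is the better known of the pair for growth signals. In CCA.Wild-type livers it had a lowest, median and highest level of 14.3, 17.9 and 25.4 CPM, against 30.3, 35.0 and 52.1 CPM in Ctrl.Wild-type livers. All 6 tumour-bearing livers lay below all 6 controls, and the fold change was -1.02 ± 0.20 (adjusted p 0.000501). The lower level in tumour-bearing wild-type livers kept its call in all 13 alternative analyses and when any library was left out. In CCA.Mdr2-/- livers the lowest, median and highest Irs1 levels were 11.6, 15.0 and 23.7 CPM, against 16.8, 22.9 and 39.4 CPM in Ctrl.Mdr2-/- livers, and 4 of the 6 tumour-bearing livers lay below all controls. The fold change was -0.62 ± 0.20 (adjusted p 0.0211). It was -0.38 with an adjusted p of 0.125 under total library size, and -0.44 with an adjusted p of 0.0814 without replicate 6 of Ctrl.Mdr2-/-, the control liver at 39.4 CPM. Without replicate 6 of CCA.Mdr2-/- it was -0.53 with an adjusted p of 0.0620.

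Irs2, the insulin receptor substrate that is induced in the fasted liver, varied more from liver to liver. It had a lowest, median and highest level of 12.3, 16.4 and 21.6 CPM in CCA.Mdr2-/- livers, against 14.3, 27.2 and 75.7 CPM in Ctrl.Mdr2-/- livers. The groups overlapped, with 1 tumour-bearing liver below all controls, and the control at 75.7 CPM was replicate 6, with the next control at 30.5 CPM. The fold change was -0.96 ± 0.34 (adjusted p 0.0314), and -0.54 with an adjusted p of 0.171 without that control. It was -0.71 with an adjusted p of 0.0948 under total library size, and 0.28, a change of sign, with the nuclear non-coding RNA share as a covariate. Leaving out replicates 1, 4 or 6 of CCA.Mdr2-/- gave adjusted p of 0.0642, 0.0553 and 0.0644. In CCA.Wild-type livers Irs2 ran from 12.7 to 51.5 CPM with a median of 15.4, against 14.3 to 35.2 CPM with a median of 27.7 in Ctrl.Wild-type livers. That difference was not called, at -0.24 ± 0.34 (adjusted p 0.638), and replicate 6 of CCA.Wild-type held the value of 51.5 CPM.

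The start regions of Irs1 and Irs2 are printed because insulin is known to lower transcription of Irs2 through FoxO binding at an insulin response element. Sequences are RefSeq windows of 300 bases on GRCm38.p6, which is not the build of the authors' counts, read 5′ to 3′ on the gene's strand. They are from chr1:82291390-82291689 (minus strand) for Irs1 and chr8:11008880-11009179 (minus strand) for Irs2. Capitals mark the insulin response core CAAAACA, seen here on the opposite strand as TGTTTTG.
Irs1: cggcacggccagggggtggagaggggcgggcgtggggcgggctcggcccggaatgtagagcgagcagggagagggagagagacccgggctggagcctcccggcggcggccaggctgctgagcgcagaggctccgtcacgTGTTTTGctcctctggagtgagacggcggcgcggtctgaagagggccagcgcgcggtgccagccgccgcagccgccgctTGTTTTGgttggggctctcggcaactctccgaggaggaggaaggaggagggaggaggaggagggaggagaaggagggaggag
Irs2: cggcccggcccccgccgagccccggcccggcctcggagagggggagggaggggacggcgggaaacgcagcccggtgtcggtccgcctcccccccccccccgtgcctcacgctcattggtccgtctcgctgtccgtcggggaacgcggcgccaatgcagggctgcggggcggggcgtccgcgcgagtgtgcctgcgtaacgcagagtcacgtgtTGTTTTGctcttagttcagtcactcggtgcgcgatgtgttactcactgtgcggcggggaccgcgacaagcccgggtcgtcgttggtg
The Irs1 window holds 2 copies of the core, starting at -111 and -32 from the annotated start, and the Irs2 window holds 1, starting at -37. Searched on both strands, the core was in 2064 of 32851 mouse start windows of the same length (6.28%), and in the windows of no other gene of the 8. An E-box (CACGTG), the letters bound by factors such as USF and TFE3, starts at -115 in Irs1, where its last letters overlap the core, and at -44 in Irs2, where 1 base separates it from the core. The E-box was in 7.15% of all windows, and both motifs were in 134 windows (0.408%). A second FoxO motif, GTAAACA on either strand, was in 3.65% of windows and, among the 8 genes, in 1 of the 2 windows of Akt1. These are matches of letters and not measured binding, and their part in the RNA levels was not tested.

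Of the PI3K subunits, Pik3ca fell in tumour-bearing wild-type livers and Pik3r1 was not called in either genotype. Pik3ca encodes the catalytic subunit alpha, the PI3K isoform that answers the insulin receptor in liver. In CCA.Wild-type livers it ran from 35.9 to 46.8 CPM with a median of 41.0, against 40.9 to 68.1 CPM with a median of 53.7 in Ctrl.Wild-type livers, and 3 of 6 tumour-bearing livers lay below all controls. The fold change was -0.38 ± 0.12 (adjusted p 0.0168), and it was -0.08 with an adjusted p of 0.628 under total library size. Without replicate 3 of CCA.Wild-type or replicate 6 of Ctrl.Wild-type the adjusted p was 0.0506 and 0.0559. In CCA.Mdr2-/- livers Pik3ca ran from 33.1 to 43.7 CPM with a median of 35.4, against 33.6 to 47.6 CPM with a median of 39.0 in Ctrl.Mdr2-/- livers. That difference was -0.11 ± 0.12 and was not called. Pik3r1, the main regulatory subunit, which stabilises the catalytic one and docks it on Irs proteins, had a median of 85.7 CPM in CCA.Mdr2-/- against 83.9 CPM in Ctrl.Mdr2-/- livers, and 96.0 CPM in CCA.Wild-type against 110.5 CPM in Ctrl.Wild-type livers. Neither difference was called (-0.14 ± 0.20 and -0.15 ± 0.20), and the value of replicate 6 of CCA.Wild-type, 180.7 CPM, was the highest of the 24 libraries.

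Akt1 rose in tumour-bearing livers of both genotypes, and Akt2 fell in those of Mdr2-/- mice. Akt1 is the widely expressed Akt kinase, linked to growth and survival, and Akt2 is the main Akt of the insulin response in hepatocytes. In replicates 1 to 6 of CCA.Mdr2-/-, Akt1 stood at 44.9, 113.2, 119.3, 133.6, 78.8 and 125.3 CPM, against 49.0 to 64.4 CPM with a median of 52.2 in the 6 Ctrl.Mdr2-/- livers. Replicate 1, with the lowest duct marker sum, lay below all controls, and the other 5 lay above all of them. The fold change was 0.90 ± 0.25 (1.86-fold, adjusted p 0.00958) and 1.05 ± 0.23 without that replicate. In replicates 1 to 6 of CCA.Wild-type, Akt1 stood at 58.5, 65.0, 132.0, 68.1, 103.8 and 161.6 CPM, against 21.2 to 47.5 CPM with a median of 34.8 in Ctrl.Wild-type livers. All 6 were above all controls, and the fold change was 1.51 ± 0.26 (2.85-fold, adjusted p 0.000103). Within the tumour-bearing wild-type group, 3 livers lay between 58.5 and 68.1 CPM and the other 3 at 103.8 CPM or above. Both Akt1 calls held in all 13 alternative analyses and with any library left out.

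In replicates 1 to 6 of CCA.Mdr2-/-, Akt2 stood at 56.4, 73.7, 73.6, 69.9, 63.7 and 59.7 CPM, against 82.0 to 116.9 CPM with a median of 99.3 in Ctrl.Mdr2-/- livers. All 6 tumour-bearing livers were below all 6 controls, and the fold change was -0.58 ± 0.12 (adjusted p 0.00142), a call that held with any library left out. It was -0.46 with an adjusted p of 0.0522 on log2(TPM + 0.1). In CCA.Wild-type livers Akt2 stood at 64.6, 75.7, 69.9, 84.8, 70.0 and 94.8 CPM, against 70.0 to 104.4 CPM with a median of 78.0 in Ctrl.Wild-type livers. These groups overlapped and the difference was not called, at -0.10 ± 0.12 (adjusted p 0.579). The fall of Akt2 was larger in Mdr2-/- than in wild-type livers by -0.48 ± 0.18 (adjusted p 0.0451), which was the only 1 of the 8 genes called for a difference of tumour effects, where 25.3% of all tested genes were called. That call was lost in 9 of 12 alternative analyses and in 14 of 24 that left out a library, with adjusted p up to 0.219 and 0.104.

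The ratio of Akt1 to Akt2 in TPM, a measure added after the values were seen, ran from 1.39 to 3.65 in CCA.Mdr2-/- livers, against 0.846 to 1.05 in Ctrl.Mdr2-/- livers. It ran from 1.398 to 3.29 in CCA.Wild-type livers, against 0.526 to 0.877 in Ctrl.Wild-type livers. Akt1 thus exceeded Akt2 in all 12 tumour-bearing livers, in 3 of 6 Ctrl.Mdr2-/- livers and in 0 of 6 Ctrl.Wild-type livers.

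Within the tumour-bearing groups, Akt1 and duct markers were compared liver by liver. On the log2 scale, Pearson's r between Akt1 and the duct marker sum was 0.85 in CCA.Mdr2-/- livers (exact permutation p 0.0208, adjusted 0.0833 over 4 relations, n = 6), with a Spearman's rho of 0.89 (exact permutation p 0.0333, adjusted 0.133). It was 0.80 in CCA.Wild-type livers (exact permutation p 0.0944, adjusted 0.169, n = 6), with a rho of 0.77 (exact permutation p 0.103, adjusted 0.137). None passed the adjustment. Without the 2 livers farthest from the median duct level, r was 0.72 in CCA.Mdr2-/- and 0.91 in CCA.Wild-type livers. Without replicate 1 of CCA.Mdr2-/- alone it was 0.58. In its group that replicate, lowest in Akt1, was lowest in duct markers too, at 1152 CPM. In CCA.Wild-type the 3 livers with Akt1 under 70.0 CPM had duct sums of 227, 386 and 252 CPM and the other 3 had 1452, 1381 and 721 CPM. These livers thus fell into 2 sets of 3 on both measures, so r there describes that split, and the relation cannot be tested within the sets. Hepatocyte markers fell in the same comparisons, with 6 of 10 lower in CCA.Mdr2-/- than in Ctrl.Mdr2-/- livers and 7 of 10 lower in CCA.Wild-type than in Ctrl.Wild-type livers. Of 13 immune markers 1 was higher and 1 lower in CCA.Mdr2-/- livers and 4 were higher in CCA.Wild-type livers, and of 10 stellate cell and fibroblast markers 3 and 6 were higher. The part of cell makeup in the Akt1 and Irs1 results was not tested.

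**Figure D3:**
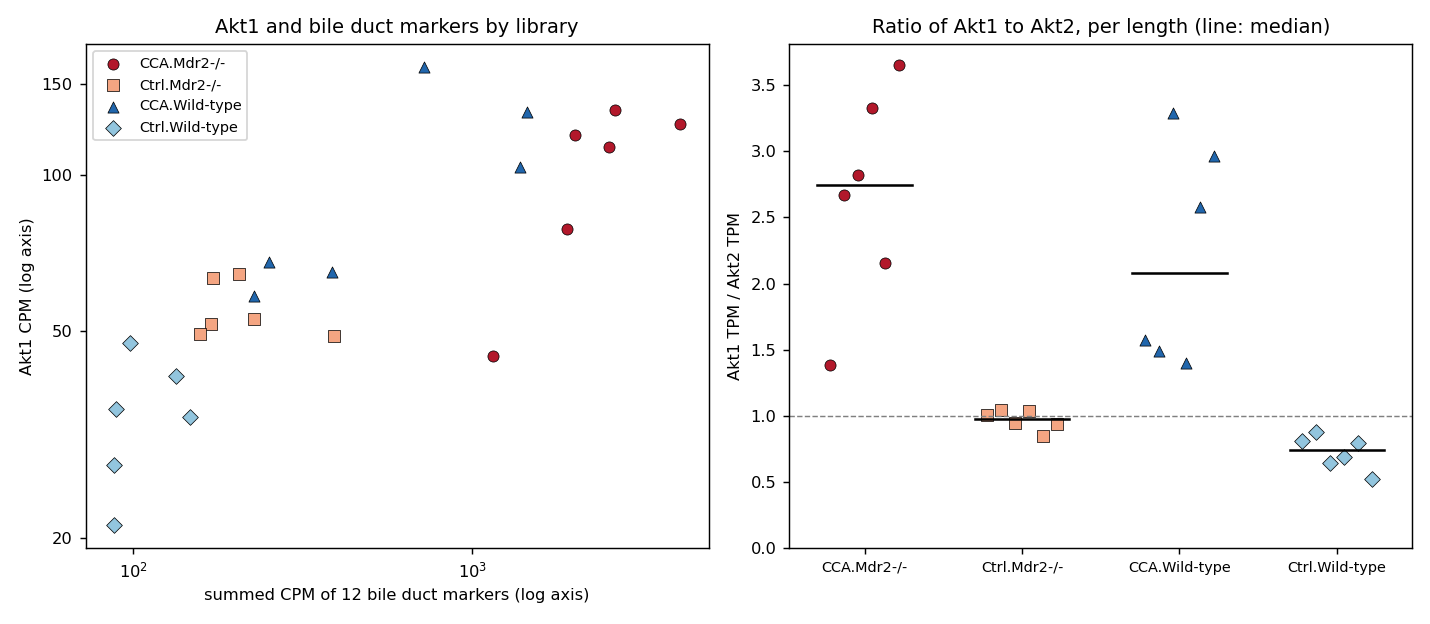
Left, Akt1 level (CPM, log axis) against the summed level of 12 bile duct markers (CPM, log axis), 1 point per liver. Right, ratio of Akt1 to Akt2 TPM by group, with the median as a bar and a dashed line at 1. All 12 tumour-bearing livers have a ratio of 1.39 or more, and CCA.Mdr2-/- replicate 1, at 44.9 CPM Akt1, has the lowest duct sum of its group.

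Yap1, the mouse counterpart of the other delivered gene, was not higher in tumour-bearing livers. It averaged 51.6 ± 6.65 CPM in CCA.Mdr2-/- and 73.3 ± 11.2 CPM in Ctrl.Mdr2-/- livers (SD, n = 6 each), a fall of 0.51 on the log2 scale (adjusted p 0.0137), and 52.5 ± 13.3 CPM in CCA.Wild-type and 56.9 ± 11.2 CPM in Ctrl.Wild-type livers, which was not called (-0.12 ± 0.15). Pearson's r between Akt1 and Yap1 was 0.58 in CCA.Mdr2-/- (exact permutation p 0.260, adjusted 0.260; rho -0.03, exact permutation p 1.0, n = 6) and 0.67 in CCA.Wild-type livers (exact permutation p 0.126, adjusted 0.169; rho 0.77, exact permutation p 0.103, n = 6). Without the 2 livers farthest from the median Yap1 level, r was -0.37 in CCA.Mdr2-/- and -0.24 in CCA.Wild-type livers, so both rest on those livers. By likeness over the 12 tumour-bearing livers, with each group's mean taken off, Yap1 ranked 2148 of 10201 genes for Akt1 (r 0.62), and 4876 (r -0.018) without the pair of libraries that stood apart. The 5 genes most like Akt1 were Tprn, Bak1, Src, Uck2 and Sox4, with r between 0.97 and 0.98. Src is a membrane-linked tyrosine kinase, Bak1 a promoter of apoptosis and Sox4 a developmental transcription factor. The 3 most like Akt2 were Slc25a39, Letm1 and Dnajb12, with r of 0.96 each. For Irs1 they were S1pr5, Pde8a and Ankrd33b (0.91 to 0.93) and for Irs2 they were Mtus1, Rxra and Ranbp10 (0.97 to 0.98). Apc, Tmem170b and 4932438A13Rik were the 3 most like Pik3ca (0.92 to 0.93), and Dnajc13, Celf1 and Med1 the 3 most like Pik3r1 (0.98 each). Vps13d, Dock5 and Erc1 were the 3 most like Foxo1 (0.97 to 0.98), and Aff1, Sap130 and Zhx3 the 3 most like Foxo3 (0.98 to 0.99). These orders change without the pair of libraries that stood apart: Tprn, Bak1, Src, Uck2 and Sox4 then ranked 4, 14, 11, 1 and 13 for Akt1, with r between 0.95 and 0.98. Apc, Tmem170b and 4932438A13Rik then ranked 19, 5 and 26 for Pik3ca, and Aff1, Sap130 and Zhx3 ranked 10, 20 and 25 for Foxo3. The genes named for the other 5 members ranked between 1 and 15.

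Of the FoxO factors, Foxo1 fell in tumour-bearing Mdr2-/- livers and Foxo3 was not called. Foxo1 is the main FoxO of hepatocyte glucose output, and Foxo3 shares many of its target genes. In CCA.Mdr2-/- livers Foxo1 had a lowest, median and highest level of 24.4, 27.1 and 38.7 CPM, against 30.8, 43.6 and 82.5 CPM in Ctrl.Mdr2-/- livers, and 4 of 6 lay below all controls. The fold change was -0.77 ± 0.26 (adjusted p 0.0270), and -0.57 with an adjusted p of 0.0980 without replicate 1 of Ctrl.Mdr2-/-, the control at 82.5 CPM. Without replicate 6 of Ctrl.Mdr2-/- it was -0.69 with an adjusted p of 0.0623, and the call was also lost without replicates 4 or 6 of CCA.Mdr2-/- (adjusted p 0.0510 and 0.0634) and was -0.52 with an adjusted p of 0.106 under total library size. In CCA.Wild-type livers Foxo1 ran from 25.6 to 78.1 CPM with a median of 34.1, against 36.8 to 82.9 CPM with a median of 60.2 in Ctrl.Wild-type livers. This was not called, at -0.48 ± 0.26 (adjusted p 0.176). Without replicate 6 of CCA.Wild-type, the liver at 78.1 CPM, it was -0.75 with an adjusted p of 0.0232. Foxo3 had a median of 44.6 CPM in CCA.Mdr2-/- against 61.4 CPM in Ctrl.Mdr2-/- livers (-0.62 ± 0.27, adjusted p 0.0769), and 51.2 CPM in CCA.Wild-type against 63.5 CPM in Ctrl.Wild-type livers (0.04 ± 0.27, adjusted p 0.941). Neither was called. Without replicate 2 of Ctrl.Mdr2-/- the Mdr2-/- value was -0.76 with an adjusted p of 0.0339, and it was called without replicate 3 of that group too. Without replicate 6 of CCA.Wild-type, at 127.5 CPM, the wild-type value was -0.29.

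The closest pairs among the 8 genes from liver to liver were those of Foxo1, Foxo3, Irs2 and Pik3r1. Over the 12 tumour-bearing livers, with the group means taken off, 28 pairs of the 8 genes were compared, and 16 had an adjusted p of r under 0.05 (100000 permutations within groups). None of the 7 pairs with Akt1 was among them. The share of such pairs among all genes was not computed, so 16 of 28 has no background beside it. By likeness, the 3 genes most like Foxo1 had r of 0.97 to 0.98, above Foxo3. Foxo1 and Foxo3 had an r of 0.95 (permutation p 0.00028, adjusted 0.00392) and a rho of 0.87 (permutation p 0.002, adjusted 0.0160), with 0.75 within CCA.Mdr2-/- and 0.99 within CCA.Wild-type, and 0.87 without the 2 livers farthest from the median. Foxo3 and Irs2 had an r of 0.94 and a rho of 0.91 (permutation p 0.00066 and 0.0007, adjusted 0.00498 and 0.0160), and r was 0.80 without the 2 farthest livers. Pik3r1 had an r of 0.92 with Foxo3, 0.92 with Foxo1 and 0.89 with Irs2. Without the pair of libraries that stood apart, these 3 values were 0.75, 0.85 and 0.62. Foxo1 and Foxo3 then had an r of 0.91 and Foxo3 and Irs2 one of 0.81. Pik3ca then had an r of 0.87 with each of Foxo1, Foxo3 and Irs2, so the set of closest pairs depended on those libraries.

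Foxo1, Foxo3, Irs2, Pik3r1 and Akt2 had high levels in most or all of the libraries with the least nuclear non-coding RNA. The 3 libraries with the lowest share, out of 24, were replicate 6 of Ctrl.Mdr2-/- (1.74%), replicate 6 of CCA.Wild-type (2.30%) and replicate 1 of Ctrl.Mdr2-/- (2.51%). Foxo3 took its 3 highest values in them, at 128.9, 127.5 and 100.8 CPM. Irs2 took its 2 highest in the first pair, at 75.7 and 51.5 CPM, and ranked 7 of 24 in the third library, at 27.4 CPM. For Foxo1 these libraries ranked 5, 3 and 2 of 24, and for Pik3r1 4, 1 and 5. The highest Foxo1 value, 82.9 CPM, was in replicate 2 of Ctrl.Wild-type, at a share of 4.14%. Akt2 ranked 1, 6 and 2 in them, Irs1 3, 9 and 8, Pik3ca 6, 8 and 11, and Akt1 12, 1 and 11. The share had a median of 6.05% in CCA.Mdr2-/- against 3.17% in Ctrl.Mdr2-/- livers, and 5.94% in CCA.Wild-type against 4.41% in Ctrl.Wild-type livers, so it moved with the tumour comparison in Mdr2-/- livers most. With the share as a covariate, 1 of the 8 genes, Akt1, stayed called in Mdr2-/- livers and 960 of all tested genes were called there, against 5995 without it. Irs2 was then 0.28, Foxo1 -0.03, Irs1 -0.10 and Akt2 -0.18, none called. In wild-type livers the same 3 genes, Akt1, Irs1 and Pik3ca, were called with the covariate. There the calls over all tested genes rose with it, to 6898 from 4891. All 6 CCA.Mdr2-/- livers had a higher share than all 6 Ctrl.Mdr2-/- livers, so share and tumour cannot be told apart there.

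**Figure D4:**
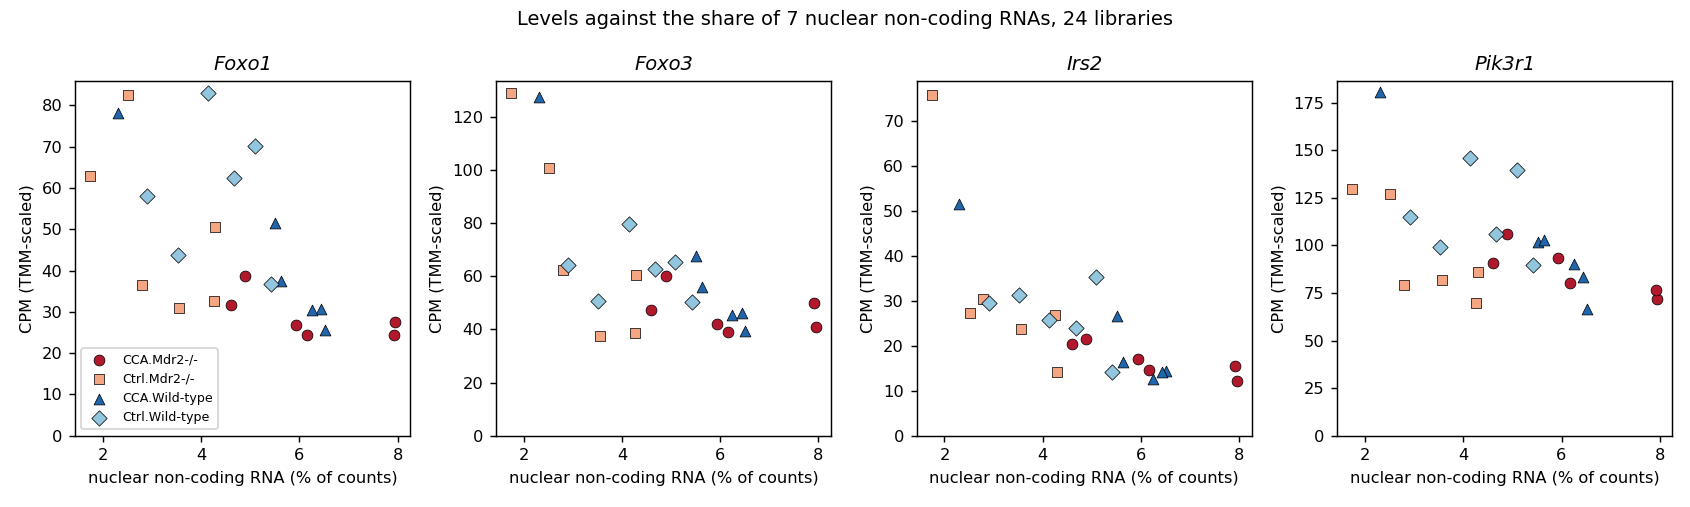
Level (CPM, vertical axes from 0) of Foxo1, Foxo3, Irs2 and Pik3r1 against the share of counts in 7 nuclear non-coding RNAs (percent, horizontal axes), 1 point per library, 24 in all. The 3 libraries at 2.51% or below include the highest Foxo3, Irs2 and Pik3r1 values, and the CCA.Mdr2-/- livers lie at 4.599% or above.

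Without tumour, Mdr2 loss went with more Akt1 and less Irs1 and Pik3ca. Akt1 was at 49.0 to 64.4 CPM in Ctrl.Mdr2-/- livers, all above the 21.2 to 47.5 CPM of Ctrl.Wild-type livers, a change of 0.68 ± 0.25 (adjusted p 0.0284). Irs1 was -0.64 ± 0.20 (adjusted p 0.0107), with 5 of 6 Ctrl.Mdr2-/- livers below all Ctrl.Wild-type livers, and Pik3ca -0.43 ± 0.12 (adjusted p 0.00426), with 4 of 6. These 3 of 8 compare with 50.5% of all tested genes, 26.2% higher and 24.3% lower. Akt1 had an adjusted p of 0.0693 without replicate 6 of Ctrl.Wild-type and of 0.0550, 0.0528 and 0.0573 without replicates 1 and 6 of Ctrl.Mdr2-/- and replicate 3 of Ctrl.Wild-type, and was 0.49 (adjusted p 0.0805) with the nuclear non-coding share as a covariate. With that covariate 4 of the 8 genes were called, all lower: Irs1, Pik3ca, Pik3r1 (-0.54, adjusted p 0.00424) and Foxo1 (-0.55, adjusted p 0.0452). Over all tested genes 8103 were then called, 4283 higher and 3820 lower. Irs1 was -0.34 (adjusted p 0.133) and Pik3ca -0.13 (adjusted p 0.399) under total library size, with 0.03 for Pik3ca on both TPM scales. Akt2, at 0.27 ± 0.12, was not called (adjusted p 0.0720), but was under total library size, limma voom and both TPM scales, and without replicate 5 of Ctrl.Wild-type (0.37, adjusted p 0.0145). Duct markers were higher in Ctrl.Mdr2-/- livers in 11 of 12 and immune markers in 9 of 13, with summed immune levels of 448 to 887 CPM in Ctrl.Mdr2-/- against 205 to 281 CPM in Ctrl.Wild-type livers; their part in these changes was not tested.

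Between the tumour-bearing groups none of the 8 genes was called by edgeR, DESeq2 or limma voom, where edgeR called 11.1% of all tested genes and called 7.13% of all tested genes higher. By edgeR 1 of the 8 had an unadjusted p under 0.05. Log2 fold changes of CCA.Mdr2-/- over CCA.Wild-type ran from -0.55 to 0.06, and the lowest adjusted p was 0.194. Akt1 differed least from 0, at 0.06 ± 0.25, with means of 102.5 ± 34.0 CPM in CCA.Mdr2-/- and 98.2 ± 41.9 CPM in CCA.Wild-type livers (SD, n = 6 each). The difference of tumour effects on Akt1 between genotypes was not called, at -0.61 ± 0.35 (adjusted p 0.196).

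Other genes of the pathway were read from lists chosen for their roles, and their counts stand against the 17.9% higher and 17.0% lower of all tested genes in Mdr2-/- livers and the 16.9% higher and 11.5% lower in wild-type livers. In Mdr2-/- livers, of 21 receptors and adaptors 2 rose and 6 fell in tumour-bearing livers, and in wild-type livers 7 rose and 4 fell (median log2 fold change -0.24 and -0.01). Grb10, an adaptor that restrains insulin and IGF1 receptors, averaged 48.8 ± 16.6 CPM in CCA.Mdr2-/- and 10.5 ± 3.79 CPM in Ctrl.Mdr2-/- livers (SD, n = 6 each; 2.22 ± 0.27, adjusted p 4.27e-06), and 12.2 ± 5.31 CPM in CCA.Wild-type and 6.62 ± 1.04 CPM in Ctrl.Wild-type livers (0.88 ± 0.27, adjusted p 0.0150). Erbb2, a growth factor receptor that signals to PI3K with Erbb3, rose by 1.46 ± 0.24 in CCA.Mdr2-/- and by 0.96 ± 0.25 in CCA.Wild-type livers. Erbb3, its partner, was lower in CCA.Mdr2-/- livers (-0.84 ± 0.27, adjusted p 0.0217), a call lost in 5 of 13 alternative analyses and with a change of sign to 0.27 under the nuclear non-coding covariate. The receptor gene Insr, outside the rule for named genes in these comparisons and singled out after its values were seen, was lower by -0.57 ± 0.20 (adjusted p 0.0322) in CCA.Mdr2-/- and by -0.61 ± 0.20 (adjusted p 0.0260) in CCA.Wild-type livers, calls that 6 and 3 of 13 alternative analyses did not keep, with a change of sign in CCA.Mdr2-/- livers under the covariate.

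Of 14 other PI3K subunits and partners, 3 rose and 4 fell in CCA.Mdr2-/- livers, and 4 rose and 1 fell in CCA.Wild-type livers (median -0.12 and 0.34). Pik3r3, a regulatory subunit related to Pik3r1, averaged 8.97 ± 1.98 CPM in CCA.Mdr2-/- and 2.71 ± 0.951 CPM in Ctrl.Mdr2-/- livers (1.72 ± 0.21, adjusted p 5.77e-06), and 4.02 ± 1.06 CPM in CCA.Wild-type and 2.10 ± 0.339 CPM in Ctrl.Wild-type livers (0.94 ± 0.22, adjusted p 0.00236). Pik3ip1, a membrane inhibitor of PI3K and a FoxO target, rose by 1.79 ± 0.31 in CCA.Mdr2-/- livers (adjusted p 0.000241). Pik3c2g, a class II PI3K of liver, fell by 1.001 on the log2 scale in CCA.Wild-type livers (adjusted p 3.83e-06). Of 15 phosphatases, 1 rose and 2 fell in each genotype (median -0.18 and 0.03).

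Among 10 tested Akt binding regulators, 1 rose and 3 fell in CCA.Mdr2-/- livers, and 2 rose and 2 fell in CCA.Wild-type livers (median -0.05 and 0.17). Those lower in CCA.Mdr2-/- livers included Trib1 (-1.11 ± 0.21, adjusted p 0.000418) and Hsp90ab1 (-0.77 ± 0.23, adjusted p 0.0145). Their calls were lost in 1 and 4 of 13 alternative analyses. In CCA.Wild-type livers Phlda1 (-1.23 ± 0.35, adjusted p 0.0104) and Hsp90aa1 (-0.90 ± 0.27, adjusted p 0.0145) were lower, calls lost in 1 and 4 of 13. Phlda3, a protein that competes with Akt for membrane lipid, averaged 13.03 ± 2.52 CPM in CCA.Mdr2-/- and 6.32 ± 1.64 CPM in Ctrl.Mdr2-/- livers (1.04 ± 0.20, adjusted p 0.000539), and 9.66 ± 3.12 CPM in CCA.Wild-type and 1.56 ± 0.460 CPM in Ctrl.Wild-type livers (2.64 ± 0.22, adjusted p 3.64e-09). Of 24 genes of the mTOR complexes and their controls, 2 rose and 9 fell in CCA.Mdr2-/- livers, and 7 rose and 3 fell in CCA.Wild-type livers (median -0.25 and 0.10). Ddit4, a stress-induced inhibitor of mTOR complex signalling, rose by 1.09 ± 0.26 (adjusted p 0.00368) in CCA.Mdr2-/- and by 2.06 ± 0.28 (adjusted p 5.28e-06) in CCA.Wild-type livers. Eif4ebp2, a repressor of translation that mTOR turns off, was lower in CCA.Mdr2-/- livers (-1.04 ± 0.29, adjusted p 0.00866), with a change of sign to 0.12 under the nuclear non-coding covariate. Rictor, a core part of mTOR complex 2, was lower in CCA.Wild-type livers (-0.62 ± 0.15, adjusted p 0.00357), a call lost in 3 of 13 alternative analyses. Of 8 related kinases, 1 rose and 2 fell in CCA.Mdr2-/- livers, and 1 rose and 1 fell in CCA.Wild-type livers (median -0.0044 and 0.17), where Pak1 rose by 1.78 ± 0.20 (adjusted p 3.03e-07).

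Of 18 tested Akt substrates outside the 8 genes, 3 rose and 3 fell in each genotype (median -0.05 and 0.04). Tbc1d4, a control of glucose transporter traffic, rose by 1.04 ± 0.16 (adjusted p 6.27e-05) in CCA.Mdr2-/- livers, and Cdkn1a, a cell cycle inhibitor and p53 target, rose by 2.68 ± 0.38 (adjusted p 1.42e-05) in CCA.Wild-type livers. Of 25 FoxO target genes, 3 rose and 5 fell in CCA.Mdr2-/- livers, and 1 rose and 6 fell in CCA.Wild-type livers (median -0.07 and -0.17). Pck1, the gluconeogenic enzyme, averaged 765.0 ± 212.9 CPM in CCA.Mdr2-/- and 1602 ± 832.8 CPM in Ctrl.Mdr2-/- livers (-1.07 ± 0.30, adjusted p 0.00951). Of 13 genes that insulin induces in hepatocytes, 4 rose in each genotype and the other 9 were not called by edgeR (median 0.01 and 0.50). In wild-type livers the number higher depended on the analysis, with 10 under total library size, 9 with the nuclear non-coding share as a covariate, 8 on both TPM scales and 6 with title number range as a covariate. Scd1, the desaturase of fatty acid synthesis, averaged 9090 ± 3485 CPM in CCA.Mdr2-/- and 3472 ± 775.1 CPM in Ctrl.Mdr2-/- livers (1.39 ± 0.25, adjusted p 0.000296), and 23788 ± 6287 CPM in CCA.Wild-type and 5828 ± 1887 CPM in Ctrl.Wild-type livers (2.03 ± 0.25, adjusted p 2.08e-06). Pnpla3, a lipid droplet protein, rose by 1.96 ± 0.42 (adjusted p 0.00160) in CCA.Mdr2-/- and by 1.71 ± 0.42 (adjusted p 0.00346) in CCA.Wild-type livers. Grb10, Erbb2, Pik3r3, Pik3ip1, Tbc1d4, Scd1 and Pnpla3 kept their calls in CCA.Mdr2-/- livers in all 13 alternative analyses, as did Pik3r3, Pik3c2g, Phlda3, Ddit4, Pak1, Cdkn1a, Scd1 and Pnpla3 in CCA.Wild-type livers. Phlda3, Ddit4 and Pck1 lost theirs in CCA.Mdr2-/- livers with the nuclear non-coding share as a covariate, Grb10 lost its call in CCA.Wild-type livers by limma voom, and Erbb2 lost its there by limma voom and with title number range as a covariate. Lists with more lower than higher calls turned round under total library size, which gave 4 higher and 1 lower for the mTOR genes, 4 and 0 for receptors and adaptors, 3 and 0 for PI3K subunits and 6 and 3 for FoxO targets in CCA.Mdr2-/- livers, and 4 and 1 for FoxO targets in CCA.Wild-type livers. With the nuclear non-coding share as a covariate, CCA.Mdr2-/- livers had 1 higher and 1 lower call among the mTOR genes, 2 and 0 among receptors and adaptors, 2 and 0 among PI3K subunits, 2 and 0 among FoxO targets, and 0 and 0 among Akt binding regulators.

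In control livers, with no tumour, Mdr2 loss went with higher RNA of 9 and lower RNA of 2 of the 21 receptors and adaptors (median 0.23), where 26.2% of all tested genes were higher and 24.3% lower. Under total library size 13 were higher and 0 lower. Pdgfrb, the PDGF receptor of stellate cells and fibroblasts, averaged 53.3 ± 16.8 CPM in Ctrl.Mdr2-/- and 12.8 ± 3.21 CPM in Ctrl.Wild-type livers (2.06 ± 0.23, adjusted p 1.29e-07), and 7 of 10 stellate cell and fibroblast markers were higher in Ctrl.Mdr2-/- livers, whose part was not tested. Phlda3 was higher by 2.03 ± 0.22 (adjusted p 9e-08) and Cdkn1a by 2.39 ± 0.38 (adjusted p 2.15e-05), and the S6 kinase gene Rps6kb1 fell by 1.21 on the log2 scale (adjusted p 5.39e-06). Of 25 FoxO targets 3 rose and 7 fell (median -0.20), with 7 higher and 3 lower under total library size. Mttp, which loads lipid onto lipoproteins, was lower by -1.08 ± 0.16 (adjusted p 1.23e-05), and Ppargc1a, a coactivator of gluconeogenic genes, by -0.96 ± 0.22 (adjusted p 0.00103). Igfbp1, an IGF-binding protein whose transcription insulin lowers, was among the genes that rose, at 46.2 ± 21.4 CPM in Ctrl.Mdr2-/- and 20.2 ± 12.6 CPM in Ctrl.Wild-type livers (1.20 ± 0.34, adjusted p 0.00516).

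**Figure D5:**
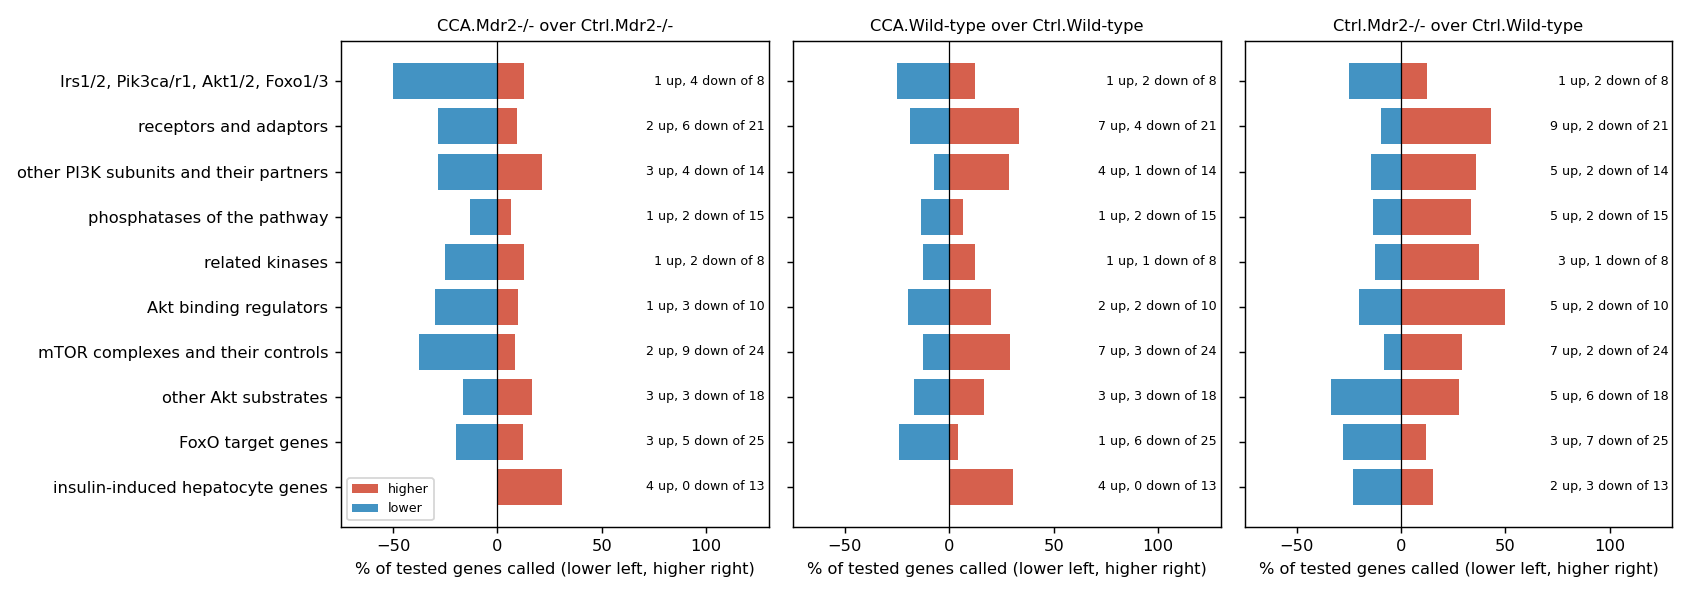
Share of tested genes called (percent, horizontal axes) in the 8 genes and in 9 lists of the pathway, lower to the left in blue and higher to the right in red, for CCA.Mdr2-/- over Ctrl.Mdr2-/-, CCA.Wild-type over Ctrl.Wild-type and Ctrl.Mdr2-/- over Ctrl.Wild-type. The counts stand at the right of each row. Genes that insulin induces have 4 of 13 called, all higher, in both tumour comparisons.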

How the data were processed

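Total RNA of mouse liver was depleted of ribosomal RNA, and both ends of fragments were sequenced (labels' protocols). The authors deposited raw counts per gene and, as a second table, TPM. The submitters' processing notes name the build mm39 and DESeq2; for the aligner, counter and strand setting, the sources used here give nothing. Each gene's TPM is its count times a fixed factor within a library, so TPM holds no isoform information.

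The 24 libraries were grouped by treatment label, 6 per group. The design text calls the livers individual and says nothing of litters or days, so p-values measure the spread between these livers, and replicates are numbered by accession. All 60 replicate pairs differed beyond sampling noise (chi-square per gene 29.4 to 279). The 174 genes without a symbol held 0.0111% to 0.0178% of counts and were kept in the fit. Genes passing filterByExpr (minimum count 10), 17216, were fitted with edgeR 4.0.16 in R 4.3.3 (TMM, robust quasi-likelihood, 1 mean per group). CPM are TMM-scaled. Alternatives used DESeq2 1.42.0 and limma 3.58.1; correlations used Python 3.11.15 and scipy 1.17.1. Simulated data for the Mdr2-/- comparison held 17011 genes, with a 2-fold change given to 98 and a 4-fold change to 97. Of these, 63 and 94 were called, with 9 false calls. In the wild-type comparison, with 17004 genes, these were 58 of 99 and 95 of 100, with 4 false calls. Far larger shares of genes were called in the livers themselves, and recovery at such shares was not tested. Intervals of counting cover counting error only.

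RefSeq start windows (GRCm38.p6) were found for all 8 genes. The members, lists and alternative analyses were chosen with earlier results of these data known. Named list genes are at most the 3 called genes with the largest fold change and the largest the other way, at 1 CPM or more. Overlapping annotated genes (GENCODE vM21) held at most 7.38% of a member's CPM (Gm38034, on Foxo1), and antisense partners at most 0.601%.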

Additional observations from a re-analysis of the deposited data

Results flagged for a closer look

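In 32 groups of 6 livers (8 genes in 4 groups) 5 had a library far from the rest by Dixon's gap test, which chance gives in about 1 group in 20. The genes share the same 24 libraries, so the 32 groups are not independent and that rate is only a rough guide. Replicate 6 of CCA.Wild-type was such a library for Pik3r1, at 180.7 CPM with the next liver at 102.9 CPM, for Foxo3, at 127.5 CPM with the next at 67.5 CPM, and for Irs2, at 51.5 CPM with the next at 26.6 CPM. Replicate 6 of Ctrl.Mdr2-/- was the high library for Irs2, at 75.7 CPM with the next at 30.5 CPM. Replicate 5 of CCA.Mdr2-/- was the high library for Pik3ca, at 43.7 CPM with the next at 36.9 CPM. The first pair of libraries named here had the lowest shares of nuclear non-coding RNA of the 24, 2.30% and 1.74%; the part of that share was not tested.

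The tumour effect on Akt2 passed a test of its difference between genotypes, -0.48 ± 0.18 on the log2 scale (edgeR adjusted p 0.0451), with -0.58 in Mdr2-/- and -0.10 in wild-type livers. The call was lost in 9 of 12 alternative analyses and in 14 of 24 that left out a library.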

How the results depend on the processing

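No paired analysis was possible because the labels give no replicate numbers that pair livers. Of 40 gene-by-comparison results, 12 were called, and 3 of these, Akt1 in both genotypes and Irs1 in wild-type livers, kept the call in all 13 alternative analyses and with any library left out; 6 of the 12 kept it with any library left out.

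Scaling moved all genes together: total library size shifted the median log2 fold change by 0.25 in Mdr2-/- tumour-bearing, 0.30 in wild-type tumour-bearing and 0.30 in control Mdr2-/- livers, upper-quartile factors by 0.12 in the first, and log2(TPM + 1) by 0.10, 0.25 and 0.41. Members called in Mdr2-/- livers were 2 with total library size, 2 on log2(TPM + 1), 1 on log2(TPM + 0.1) and 1 with the nuclear non-coding share as a covariate, where all calls numbered 960, and 2 to 6 with a library left out. Values that changed sign there were Pik3ca, at 0.012 (upper-quartile factors), 0.13 (total library size), 0.0054 and 0.0056 (TPM) and 0.060 (covariate), Pik3r1, at 0.11, 0.0022, 0.0031 and 0.50 under the last 4 of these, and Foxo3 and Irs2, at 0.28 each with the covariate. In wild-type livers Akt2 was 0.19 with total library size, 0.19 and 0.20 on TPM and 0.049 with the covariate; Pik3r1 was 0.15, 0.10, 0.10 and 0.011; Irs2 was 0.041 with total library size and 0.017 with the covariate; Foxo3 was -0.20 by limma voom, -0.29 without the 2 libraries that stood apart, -0.26 with title number range as a covariate, and -0.29 to 0.14 with a library left out. For the difference of tumour effects, members called were 0 with upper-quartile factors, no filter, minimum count 50, limma voom, both TPM scales, without the 2 libraries and with title range, and 0 to 1 with a library left out, and with the covariate 2682 genes and 1 member were called, Irs1 at 0.74 (adjusted p 0.0450), while Akt2 was not. Pik3ca in controls was 0.030 and 0.033 on the TPM scales. Between tumour-bearing groups 2927 genes were called with total library size, 4126 by limma voom and 3306 and 3069 on TPM, and 1116 to 2751 with a library left out, against 1917; Akt1 was -0.050 to 0.26 with a library left out. With mean log2 markers, r of Akt1 against duct markers had an adjusted exact permutation p of 0.0361 in both groups (r 0.97 in CCA.Mdr2-/-, 0.93 in CCA.Wild-type). That setting was adjusted over the duct relations alone, a smaller family than in the main analysis. Its rho did not pass, at 0.60 and 0.77 (adjusted exact permutation p 0.242 and 0.206). On TPM, r passed for duct markers in CCA.Mdr2-/- (0.91) and for Yap1 in CCA.Wild-type (0.86), and no rho did. With a library left out, r of Akt1 against duct markers ran from 0.58 to 0.95 in CCA.Mdr2-/- and 0.72 to 0.95 in CCA.Wild-type. Akt1 against Yap1 ran from -0.66 to 0.82 in CCA.Mdr2-/-. The cause of these changes was not tested.

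Title numbers below 2000 held 3 CCA.Mdr2-/- and 4 Ctrl.Mdr2-/- livers, and those from 2000 up held 3 and 2. Mean log2 differences of CCA.Mdr2-/- minus Ctrl.Mdr2-/- in these ranges were 0.64 and 0.97 for Akt1, -0.47 and -0.76 for Akt2 and -0.46 and -1.50 for Irs2. The 2 controls from 2000 up include replicate 6, at 75.7 CPM of Irs2. In wild-type livers all tumour-bearing and 1 of 6 control libraries are from 2000 up, so range and group cannot be told apart.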
